A study of Mus musculus with 4 samples.

Results

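The interferon-stimulated genes measured here were 32 of 35 listed genes, among 19938 mouse genes that had a probe set of their own on the arrays. They were chosen by symbol from a list of genes that type I, II or III interferons are known to induce, and each was read from the probe set that carried only its symbol, taking the one with the highest mean signal where there were several. Isg15, Gbp2 and Igtp were found only on probe sets shared with other genes and are treated as unmeasured. The study compared lens epithelia of UVB-irradiated eyes with Control lens epithelia of foil-covered eyes in 2 independent experiments, each with 1 array per condition. UVB epithelia came from right eyes of 8-week-old male C57BL/6 mice exposed to UVB at 30 mJ/cm2, and Control epithelia came from the left eyes of the same mice, which were under foil during the exposure. Eyes were removed 1 day later. Each animal experiment used 3 mice, and the sources used here do not say whether their RNA was pooled on an array. C57BL/6 mice carry a defective Mx1 allele, which limits what that antiviral gene can show as a protein in this strain. A human array is named in the methods, but the probe sets carry mouse symbols.

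Interferons are secreted proteins released by cells that sense viral nucleic acid, bacterial products or their own displaced DNA. They bind paired receptors, whose JAK1 and TYK2 or JAK2 kinases activate STAT proteins. A STAT complex that holds STAT2 and IRF9 binds the interferon-stimulated response element (ISRE), and STAT dimers bind the gamma-activated site (GAS). The genes switched on in this way block virus entry and replication, digest or sense foreign RNA, restrict intracellular parasites and raise antigen presentation, and many of them also keep a low tonic expression in tissue without infection.

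Values are log2 signals, so a difference of 1 is a doubling, and every difference below is UVB minus Control. The signals carry no detection call. Probe sets differ in affinity, so a signal's place among all probe sets does not measure the amount of transcript. The same holds for signals summed over markers. Array medians were 7.22 and 7.21 in UVB, against 7.19 and 7.2 in Control. Within every probe set, the 2 arrays of experiment 1 and the 2 arrays of experiment 2 had equal sums within 0.01, so that the means of the experiments had been made equal before deposit, by a step that none of the sources used here describes. Because of it, a probe set that was higher in both experiments always had both UVB arrays above both Control arrays, and a limma fit without pairing understates the spread. Each call is therefore also given from a fit in which the experiment is a block, so that each UVB array is read against its own Control array. For a single value, the smallest exact permutation p in this design is 0.333, and p-values measure the spread between these arrays only.

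In lens epithelia 1 day after UVB, most interferon-stimulated genes had signals close to those of Control, and the gene with the largest difference was Ifitm3. The median difference of the 32 genes was 0.03 (0.02 in experiment 1 and 0.03 in experiment 2), against −0.02 over all probe sets, and 20 of the 32 lay within 0.1 of 0. At an adjusted p of 0.05 in limma, 2 genes were called higher (Oasl2 and Gbp3), which is 6.25% of the members where 6.62% of all probe sets were called higher. None was called lower by limma, where 11.0% of all probe sets were, and the methods' t-test with the same adjustment called Irf9 and Oas2 lower, each with identical signals on its UVB arrays and on its Control arrays. With the experiment as a block, 0 members and 0.0% of all probe sets passed, with 0.357 as the lowest adjusted p. At an unadjusted p of 0.05, the count was 6 higher and 1 lower without the block (14.4% and 23.6% of all probe sets), and 2 higher and 0 lower with it (5.69% and 7.71%). No member passed the thresholds of the methods, 1.8-fold and an unadjusted p of 0.01, which 0.111% of all probe sets passed upward and 0.0% downward.

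Both experiments had the gene higher in UVB for 12 members (37.5%, against 24.0% of all probe sets) and lower for 9 (28.1%, against 37.4%), while the other 11 had opposite signs or a difference of 0 in at least 1 experiment. The count of 9 depended on the scaling, with 5 members lower in both under quantile normalization (15.6%, against 34.7% of all probe sets) and 4 with equal 75th percentiles (12.5%, against 29.5%). The size of the differences was also near that of other genes, with a median of 0.08 in the members and 0.07 over all probe sets regardless of sign. Differences over 0.2 in size were found in 3 members (9.38%, against 10.5%), and a difference over 0.5 in 1 (Ifitm3), where 0.898% of all probe sets had one. The upper end of the 95% interval lay below a doubling in 31 of 32 members, with and without the block, the exception being Ifitm3. The median half-width of these intervals was 0.14 without the block and 0.22 with it.

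**Figure D1:**
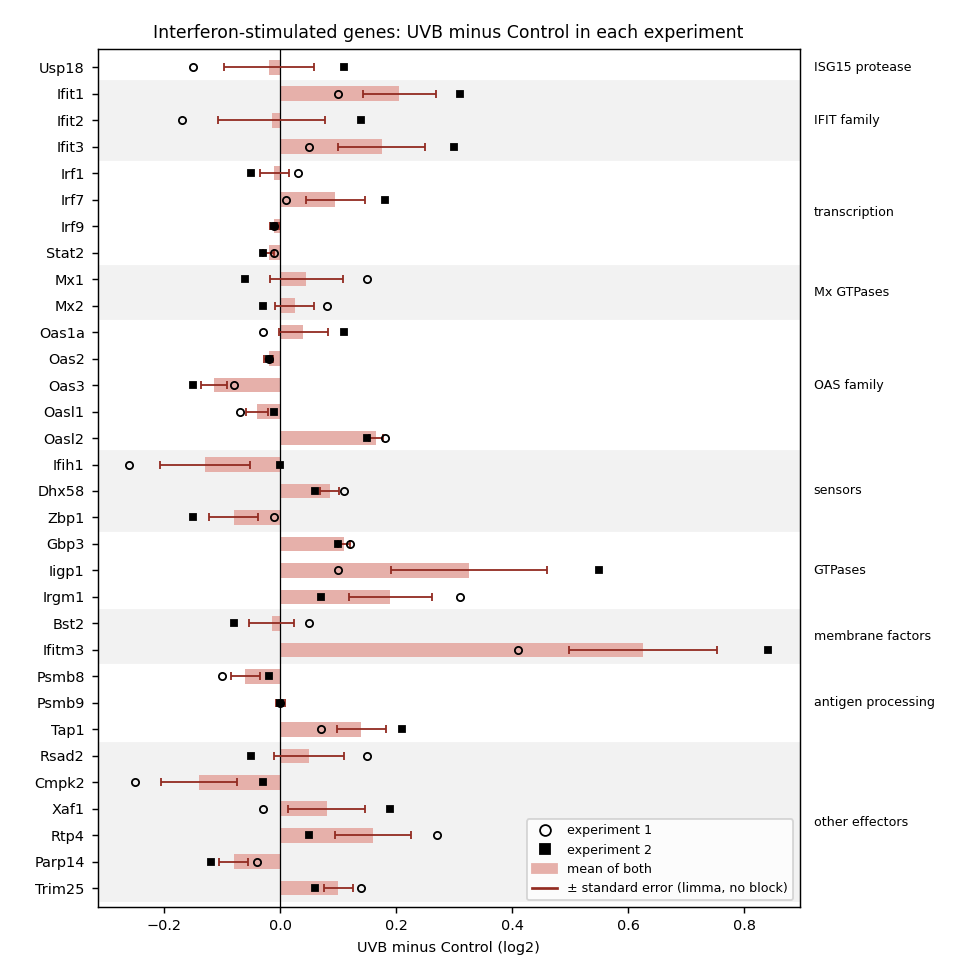
UVB minus Control (log2, x axis) for the 32 measured interferon-stimulated genes, grouped by role, with open circles for experiment 1, filled squares for experiment 2, bars for their mean and whiskers for the standard error of the limma fit without a block. Most bars lie within 0.1 of 0, and Ifitm3 stands at the right with 0.41 in experiment 1 and 0.84 in experiment 2.

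The promoter sequences show that these genes carry the interferon element at different distances, and that its presence did not go with one direction. RefSeq windows (GRCm38.p6) from 250 bases before to 50 bases after the gene start were found for 26 of the 35 listed genes. The ISRE core, searched as GAAA, any 2 bases and GAAA on both strands, stood in 14 of them (53.8%), against 3.99% of all 27025 genes with a window. The GAS core, TTCNNNGAA, which reads the same on both strands, stood in 7 (26.9%), against 9.55%, and overlapped ISRE matches in Ifitm3 and Bst2. The sequences below were chosen to set genes with large and with small differences side by side. They are written 5′ to 3′ on the strand of the gene, with ISRE matches on either strand in capitals.
Ifitm3: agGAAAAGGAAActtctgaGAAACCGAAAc
Ifit1: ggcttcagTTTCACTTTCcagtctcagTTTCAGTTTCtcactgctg
Irgm1: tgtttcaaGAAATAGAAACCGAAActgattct
Gbp3: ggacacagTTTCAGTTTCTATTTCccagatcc
Bst2: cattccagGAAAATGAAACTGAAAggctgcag
Oas3: agggaggaGAAAACGAAAgtgaaggg
Stat2: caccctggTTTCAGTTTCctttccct
Rsad2: ggtccaacTTTCATTTTCagaaaaca

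The Ifitm3 stretch lies at chr7:141010715-141010744 on the minus strand and is made of the first 30 transcribed bases of the RefSeq transcript. The Ifit1 stretch lies at chr19:34640777-34640822 (plus), with separate matches, the nearer of them at −85 from the start, and the Gbp3 stretch at chr3:142559991-142560022 (plus), with overlapping matches at −45 and −39. Irgm1 (chr11:48871427-48871458, minus) and Bst2 (chr8:71537579-71537610, minus) likewise hold a pair of overlapping matches. Oas3 (chr5:120777717-120777742, minus), Stat2 (chr10:128270268-128270293, plus) and Rsad2 (chr12:26456555-26456580, minus) hold a single match each. Of these 8 genes, Ifitm3 had the largest difference (0.63), Bst2 had −0.02 with both elements in its window, and Oas3 had −0.12. Over the 11 measured genes with an ISRE match the differences ran from −0.13 to 0.63 with a median of 0.05, and 5 were higher and 2 lower in both experiments. Over the 12 measured genes whose window held no match, the median was −0.005, with 4 higher and 4 lower in both. Of all probe sets, 24.0% were higher and 37.4% lower in both experiments, and the counts of these small sets were not tested.

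Of the transcription factors that carry the interferon signal to the promoter, none differed by as much as 0.1 in the mean of both experiments. Stat2, a subunit of the factor that carries the type I and type III response, had signals of 8.31 and 8.30 in UVB, against 8.32 and 8.33 in Control. Irf9, the DNA-binding subunit of the same complex, had 8.15 on both UVB arrays and 8.16 on both Control arrays. The difference was −0.02 (SE 0.0099, limma adjusted p = 0.249) for Stat2 and −0.01 (SE 0.0079, adjusted p = 0.428) for Irf9, and the value of Irf9 turned to 0.01 when the 75th percentiles of the arrays were set equal. Irf7, the factor that amplifies interferon alpha production, had 0.01 in experiment 1 and 0.18 in experiment 2. Irf1, which answers to interferon gamma, had 0.03 and −0.05, and its mean of −0.01 also turned to 0.01 under that scaling. The other probe set of Irf1 had −0.04.

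The sensors of foreign nucleic acid among the members had no common direction. Ifih1, the gene of the RNA helicase MDA5, had 5.79 and 5.92 in UVB, against 6.05 and 5.92 in Control, so that the groups met at 5.92 and the difference of −0.13 (SE 0.0777, limma adjusted p = 0.324) came from experiment 1. Dhx58, which encodes the helicase LGP2, had 0.11 and 0.06 in the 2 experiments (adjusted p = 0.0696). Zbp1, a sensor of Z-form nucleic acid that can trigger necroptosis, had −0.01 and −0.15.

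The IFIT genes encode proteins that bind viral RNA and hold back its translation. All 3 were higher relative to Control in experiment 2 than in experiment 1, as 45.8% of all probe sets were. Ifit1 had 7.34 and 7.44 in UVB, against 7.24 and 7.13 in Control, and Ifit3 had 8.06 and 8.18 in UVB, against 8.01 and 7.88 in Control. The groups did not overlap in either gene, and the differences were 0.21 for Ifit1 (1.15-fold, SE 0.063, limma adjusted p = 0.133) and 0.18 for Ifit3 (SE 0.0748, adjusted p = 0.211). Ifit2 had 7.58 and 7.74 in UVB, against 7.75 and 7.60 in Control. Its differences of −0.17 and 0.14 nearly cancelled, and the mean of −0.02 turned to 0.005 with equal 75th percentiles. Ifit3b, a near copy of Ifit3 on the same chromosome 19 and no member of the list, had −0.03 and 0.57, and how far the probes tell the 2 copies apart was not tested.

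Usp18, which removes ISG15 from proteins and dampens the type I receptor, had 8.30 and 8.43 in UVB, against 8.45 and 8.32 in Control. The groups overlapped, and the difference of −0.02 (SE 0.0777, limma adjusted p = 0.872) became 0.05 without UVB replicate 1 or without Control replicate 1, and 0.00 with equal 75th percentiles. Isg15, the ubiquitin-like modifier itself, shared its probe set with Gm9706. That probe set gave 6.40 and 6.29 in UVB, against 6.07 and 6.18 in Control, a difference of 0.22 (SE 0.0658, adjusted p = 0.128) which cannot be assigned to either gene.

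The oligoadenylate synthetases answer double-stranded RNA with a second messenger that sets off RNA decay. Among them and the related Oasl genes, limma called 1 of 5 members higher (20.0%, against 6.62% of all probe sets). None was called lower, where 11.0% of all probe sets were. Oasl2 had 7.83 and 7.82 in UVB, against 7.65 and 7.67 in Control, and the groups did not overlap. The difference was 0.17 (1.12-fold, SE 0.0123, limma adjusted p = 0.0238), and its 95% interval ran from 0.13 to 0.21 without the block and from 0.05 to 0.28 with it. The call was lost with the block (limma adjusted p = 0.357), where no probe set passed. Without any 1 array the difference lay between 0.155 and 0.175. Oas3 had 6.57 and 6.53 in UVB, against 6.65 and 6.68 in Control, with a difference of −0.12 (SE 0.0224, adjusted p = 0.0682). Oas1a had −0.03 and 0.11, Oas2 had −0.02 in both experiments and Oasl1 had −0.07 and −0.01. A second probe set that Oas1a shares with Oas1g had a difference of 0.03. The genes of this family on chromosome 5 with a probe set of their own, listed or not, numbered 11. In both experiments 2 of them were higher (18.2%, against 24.0% of all probe sets) and 5 lower (45.5%, against 37.4%). These shares were near those of all probe sets. The counts were 3 and 4 under quantile normalization, 2 and 3 with equal 75th percentiles, and 1 and 5 with arrays centred on the median.

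The Mx GTPases, which trap viral nucleocapsids, had differences of opposite sign in the 2 experiments, except that Mx2 was above 0 in both under quantile normalization. Mx1 had 5.04 and 4.94 in UVB, against 4.89 and 5.0 in Control, and Mx2 had differences of 0.08 and −0.03. Rsad2, the gene of viperin and a strongly induced antiviral enzyme in infected cells, had 5.78 and 5.68 in UVB, against 5.63 and 5.73 in Control, and the groups overlapped. The 25th percentile of all signals lay between 5.91 and 5.94 on the 4 arrays, so that all 3 genes were read at signals under it.

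**Figure D2:**
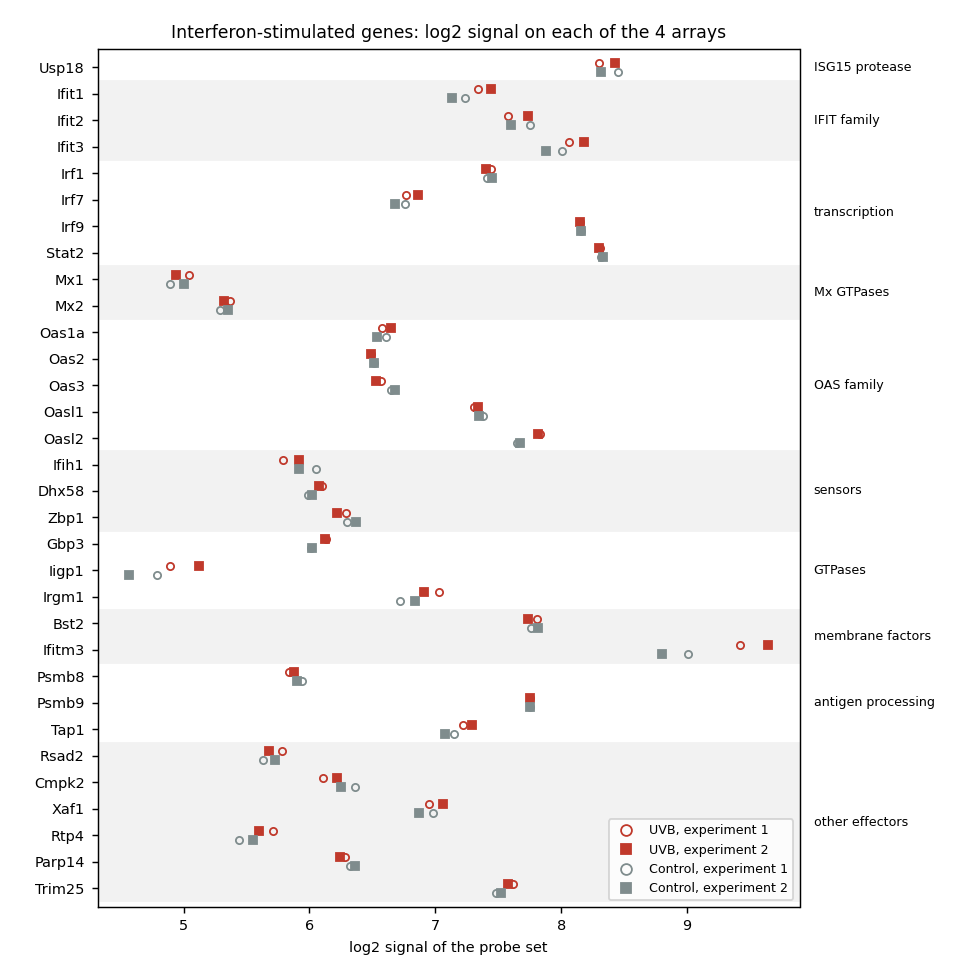
Log2 signal (x axis) of the 32 measured interferon-stimulated genes on each array, with UVB in red above Control in grey and open circles for experiment 1, filled squares for experiment 2. In Ifitm3 the UVB arrays stand apart at 9.42 and 9.64, against 9.01 and 8.80 in Control, while in Irf9, Oas2 and Psmb9 the 4 arrays nearly coincide.

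Each of the 3 measured GTPases of the defence against intracellular parasites was higher in both experiments, as 24.0% of all probe sets were. Without the block limma called 1 of them higher (Gbp3, 33.3%, against 6.62% of all probe sets), and with it none. Gbp3, a guanylate-binding protein, had 6.13 and 6.12 in UVB, against 6.01 and 6.02 in Control, a difference of 0.11 (1.08-fold, SE 0.0099, limma adjusted p = 0.0263) whose call was lost with the block (adjusted p = 0.357). Irgm1, a regulator of the immunity-related GTPases and of autophagy, had 7.03 and 6.91 in UVB, against 6.72 and 6.84 in Control, with a difference of 0.19 (SE 0.0717, adjusted p = 0.179). Iigp1, an effector GTPase of the same family, had 4.89 and 5.12 in UVB, against 4.79 and 4.57 in Control. Its groups did not overlap, but the differences were unequal at 0.10 and 0.55, and the mean of 0.33 (1.25-fold, SE 0.134, adjusted p = 0.201) rests on signals under the 25th percentile of the arrays.

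Gbp2, another guanylate-binding protein, could be read only together with Gbp2b. Their shared probe set gave 7.06 and 7.08 in UVB, against 6.62 and 6.60 in Control, with no overlap and a difference of 0.46 (SE 0.0143, limma adjusted p = 0.021, or 0.357 with the block). The probe set of Gbp2b alone had a difference of 0.12. The guanylate-binding genes lie in clusters on chromosomes 3 and 5, and this grouping was looked at after their values were seen. On chromosome 3, all 4 genes with their own probe set (Gbp2b, Gbp3, Gbp5 and Gbp7) were higher in both experiments, by 0.11 to 0.28, where 24.0% of all probe sets were. They were so under each of the 3 other scalings as well, where 18.5% to 30.2% of all probe sets were. How far the probes tell these related genes apart was not tested. On chromosome 5, differences of the 4 genes ran from −0.25 (Gbp11) to 0.17 (Gbp8). The probe set of Igtp, shared with Irgm2, had 0.00 in experiment 1 and −0.10 in experiment 2.

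Ifitm3, a membrane protein that stops enveloped viruses from fusing with endosomes, had the largest difference of the 32 genes. Its signals were 9.42 and 9.64 in UVB, against 9.01 and 8.80 in Control, and the groups did not overlap. Means were 9.53 ± 0.16 in UVB and 8.91 ± 0.15 in Control (SD, n = 2 each), a difference of 0.63 or 1.54-fold (SE 0.128). In limma the adjusted p was 0.0711 without the block and 0.357 with it, and the 95% interval ran from 0.20 to 1.05 without the block and from 0.04 to 1.22 with it. The increase was 0.41 in experiment 1 and 0.84 in experiment 2, and 137 probe sets (0.473% of all) had a larger one. Without any 1 array it lay between 0.52 and 0.74.

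The other IFITM genes of the chromosome 7 cluster, which were looked at after the value of Ifitm3 was seen, had smaller differences. Ifitm2, whose product also restricts virus entry, had 11.67 and 11.70 in UVB, against 11.68 and 11.65 in Control, and Ifitm1 had −0.03 and −0.08. The other probe set of Ifitm1 had 0.13 and −0.01. Ifitm5, which is known from bone, had −0.04 and −0.22, Ifitm6 had 0.11 and −0.03 and Ifitm10 had −0.03 and −0.02. Bst2, the gene of tetherin, which holds budding virus at the cell surface, had 0.05 and −0.08, and its mean of −0.02 turned to 0.005 with equal 75th percentiles.

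The immunoproteasome and peptide transport genes were split. Tap1, which moves peptides into the endoplasmic reticulum, had 7.22 and 7.29 in UVB, against 7.15 and 7.08 in Control, with a difference of 0.14 (SE 0.0423, limma adjusted p = 0.130). Psmb9, whose gene lies head to head with Tap1, had 7.75 on all 4 arrays. Psmb8, the gene of another inducible proteasome subunit, had −0.10 and −0.02.

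The remaining effectors went both ways, and none was called. Rtp4, a chaperone of membrane receptors with antiviral activity, had 5.71 and 5.60 in UVB, against 5.44 and 5.55 in Control, with a difference of 0.16 (SE 0.0658, limma adjusted p = 0.2). Cmpk2, a mitochondrial nucleotide kinase and the neighbour of Rsad2, had 6.11 and 6.22 in UVB, against 6.36 and 6.25 in Control, with a difference of −0.14 (SE 0.0658, adjusted p = 0.243). The groups did not overlap in either gene. Trim25, the ubiquitin ligase that activates RIG-I, had 0.14 and 0.06 (adjusted p = 0.0965), Xaf1, a proapoptotic factor, had −0.03 and 0.19, and Parp14, a mono-ADP-ribosyltransferase, had −0.04 and −0.12. Over the 32 genes, the difference was larger in experiment 2 for 14, smaller for 15 and equal for 3. It was larger in experiment 2 for 45.8% of all probe sets.

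**Figure D3:**
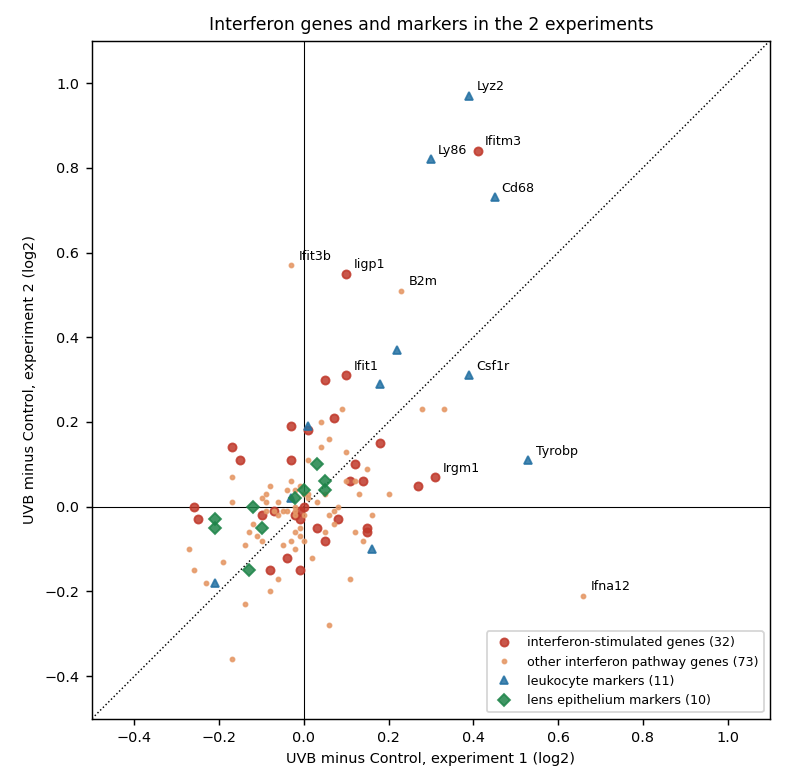
UVB minus Control (log2) in experiment 1 (x axis) and experiment 2 (y axis) for the 32 interferon-stimulated genes, 73 other interferon pathway genes, 11 leukocyte markers and 10 lens epithelium markers, with equal differences on the dotted line. Ifitm3 (0.41, 0.84) lies beside Lyz2 (0.39, 0.97), Ly86 (0.30, 0.82) and Cd68 (0.45, 0.73), and most other interferon genes lie near the origin. Other leukocyte markers lie elsewhere, among them Tyrobp (0.53, 0.11), Csf1r (0.39, 0.31) and Itgam (−0.21, −0.18).

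Markers of leukocytes were higher in UVB as well, and leukocytes are known to express many interferon-stimulated genes as well. Of 11 markers measured, 8 were higher in both experiments (72.7%, against 24.0% of all probe sets), with a median difference of 0.30. In limma without the block, 4 were called higher (Cd68, Csf1r, Adgre1 and Laptm5, 36.4% against 6.62%) and 1 was called lower (Itgam, 9.09% against 11.0%). None of the 11 was called with the block (lowest adjusted p = 0.357). The summed linear signal of the 11 was 1521 and 1636 in UVB, against 1249 and 1176 in Control, or 1.22-fold in experiment 1 and 1.39-fold in experiment 2. Lyz2, the lysozyme of macrophages and neutrophils, had 7.98 and 8.27 in UVB, against 7.59 and 7.30 in Control, and like Ifitm3 it differed more in experiment 2. The list was not uniform in this. For 8 of the 11, UVB minus Control was higher in experiment 2 (against 45.8% of all probe sets), and for 3 it was lower. Tyrobp (0.53 and 0.11) and Csf1r (0.39 and 0.31) were among the 3. Ptprc, the CD45 gene that all leukocytes share, had 5.76 and 5.85 in UVB, against 5.75 and 5.66 in Control, and Cd3e of T cells had a difference of −0.005. Both genes had signals under the array medians, and without a detection call these values do not show whether the transcripts were present. The part of these cells in the difference of Ifitm3, or of any other member, was not tested.

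Markers of the retinal pigment epithelium were higher too, in both experiments for 6 of 6 genes (100.0%, against 24.0% of all probe sets). Their median difference of 1.47 was larger than that of the leukocyte markers. The difference was smaller in experiment 2 for 5 of them and larger for 1, where it was larger for 45.8% of all probe sets. In limma without the block, 4 were called higher (66.7%, against 6.62%). Summed signals were 4731 and 4421 in UVB, against 1605 and 1717 in Control, and the part of these cells was not tested either. The 10 lens epithelium markers, Cryaa, Pax6 and Foxe3 among them, all had signals above the array median, with sums of 41430 and 41950 in UVB, against 41710 and 41270 in Control. Foxe3 alone was called, as lower by 0.14. Of 7 blood vessel markers, 1 was called higher (14.3%, against 6.62% of all probe sets) and 3 lower (42.9%, against 11.0%), with summed signals of 839.6 and 847.9 in UVB, against 886.0 and 875.3 in Control. No pigment epithelium, lens or vessel marker was called by limma with the block (lowest adjusted p = 0.357). In such tissue samples more cells of a type and more RNA per cell cannot be told apart.

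The genes that make, receive and pass on interferon had differences of both signs. Of 84 other pathway genes listed, 73 had a probe set of their own, with a median difference of −0.02 and a range from −0.27 to 0.37. In limma 3 were called higher (4.11%) and 5 lower (6.85%), against 6.62% and 11.0% of all probe sets. With the block limma called none, and 2 were higher and 4 lower at an unadjusted p of 0.05, where 5.69% and 7.71% of all probe sets were. In both experiments 18 were higher (24.7%) and 26 lower (35.6%), against 24.0% and 37.4% of all probe sets.

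Of 12 genes of the interferons themselves, 7 were lower in both experiments (58.3%, against 37.4% of all probe sets) and 1 was higher in both (8.33%, against 24.0%), with a median of −0.09. In limma 2 were called lower (16.7%, against 11.0%) and none higher, and with the block none was called. At an unadjusted p of 0.05, 6 were lower and 1 higher without the block, where 23.6% and 14.4% of all probe sets were. With the block, 2 were lower and 0 higher, where 7.71% and 5.69% of all probe sets were. Ifnb1, the first interferon made by most tissue cells, had 5.38 and 5.46 in UVB, against 5.65 and 5.56 in Control (difference −0.19, limma adjusted p = 0.113). Ifng, the product of T and natural killer cells, had 6.36 and 6.26 in UVB, against 6.53 and 6.62 in Control (difference −0.27, adjusted p = 0.0784). The called ones were Ifna2, with −0.21 (adjusted p = 0.0255), and Ifnl2, with −0.12 (adjusted p = 0.0466), and Ifnk had −0.21 (adjusted p = 0.0520). Since 6 of the 12 had mean signals under the 25th percentile of the probe sets and no detection call exists, these values do not show that the transcripts were present.

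The receptors and their kinases had differences near 0, Il10rb being the farthest from it. Ifnar1 had 9.40 and 9.46 in UVB, against 9.49 and 9.43 in Control, and its partner Ifnar2 had a difference of −0.03 as well. The interferon gamma receptor chains Ifngr1 and Ifngr2 had 0.00 and 0.02, and Il10rb, a chain that interferon lambda shares with interleukin 10, had 0.11 (limma adjusted p = 0.114). Ifnlr1, its lambda-specific partner, had −0.02. Jak1 had −0.005, Jak2 had −0.02 and Tyk2 had −0.04.

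Among 13 sensors and adaptors, Ddx58, the RIG-I gene, was higher by 0.12 (SE 0.0123, limma adjusted p = 0.0321), and Ticam1, the adaptor of Toll-like receptors 3 and 4, had −0.16 (adjusted p = 0.0364). Tlr9, a sensor of unmethylated DNA, had −0.14 (adjusted p = 0.104). Among 9 negative regulators, Socs3, which shuts off JAK signals and is induced by interleukin 6 type cytokines as well as by interferon, had 8.03 and 8.01 in UVB, against 7.75 and 7.78 in Control. Its difference of 0.26 (SE 0.0171, adjusted p = 0.0222) had the smallest adjusted p of the pathway genes, and groups did not overlap. The other probe set of Socs3 had a smaller difference, 0.09 in experiment 1 and 0.07 in experiment 2. Trex1, the nuclease that clears cytosolic DNA and so keeps the cGAS pathway silent, had −0.19 (adjusted p = 0.0483), and the phosphatase gene Ptpn6 had 0.09. All these calls were lost with the block (adjusted p = 0.357).

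Of 8 class I presentation genes limma called none, and 1 higher and 1 lower had an unadjusted p under 0.05 without the block, as 14.4% and 23.6% of all probe sets had. B2m, the light chain of class I molecules, had 10.53 and 10.67 in UVB, against 10.30 and 10.16 in Control, a difference of 0.37 (SE 0.0836, limma adjusted p = 0.0848) that was again larger in experiment 2 (0.51) than in experiment 1 (0.23). Psme1, a proteasome activator subunit, had −0.09 (adjusted p = 0.0511), and Erap1, which trims peptides, had 0.12. The heavy chain genes H2-K1 and H2-D1 could not be separated, and the probe sets they share had differences of 0.11 (adjusted p = 0.0263) and 0.14 (adjusted p = 0.180). Nlrc5, the transactivator of class I genes, shows how the choice of probe set matters and was singled out after its values were seen. The probe set with the highest mean had 0.03, whereas all 18 others lay below 0, between −0.34 and −0.09. Of the 18, 1 was called lower, where 11.0% of all probe sets were. Among 22 further induced genes, Gbp5 was called higher (0.28, adjusted p = 0.0321) and Lgals3bp, a secreted glycoprotein, lower (−0.09, adjusted p = 0.0321), and Gbp7 had 0.12 (adjusted p = 0.0520). These calls, and those of the shared and Nlrc5 probe sets, were lost with the block, where no probe set passed (lowest adjusted p = 0.357).

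**Figure D4:**
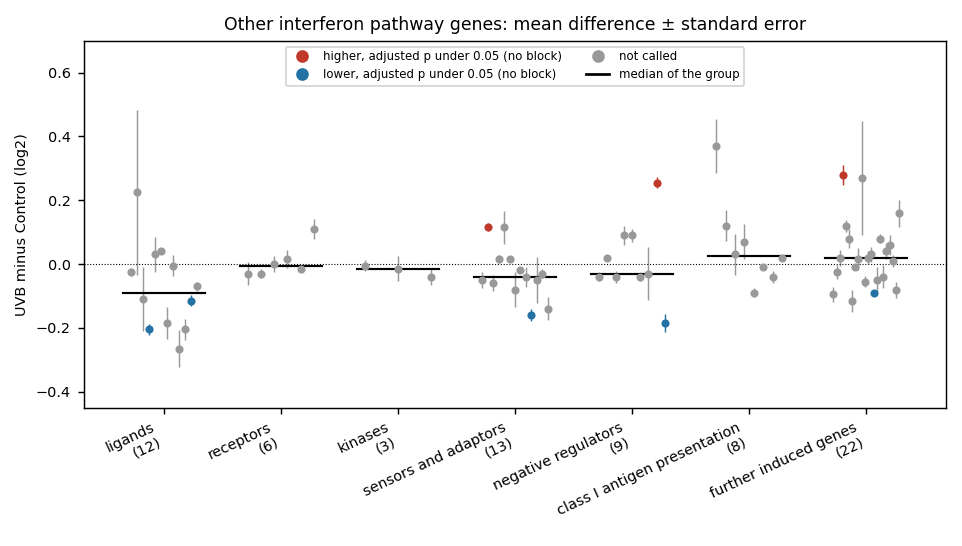
UVB minus Control (log2, y axis) of 73 other interferon pathway genes by role (x axis, number of genes in brackets), with points for the mean of both experiments, whiskers for the standard error of the limma fit without a block and bars for the group median. The 3 called higher are red and the 5 called lower are blue, and the ligand median lies lowest at −0.09.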

How the data were processed

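The 4 arrays held 2 UVB and 2 Control samples. Sample titles number the arrays of experiment 2 and leave those of experiment 1 unnumbered. The authors deposited log2 signals of 28944 probe sets, between 1.49 and 13.97, processed with Affymetrix Expression Console, with no version, background correction or summarization named in the sources used here. Platform annotation gave 1 symbol to 21789 probe sets and several to 1621, and listed none for 5534. Of the genes, 999 had several probe sets. The members and all gene lists were chosen with earlier results of these data known. All members are named, with 4 array values for the 10 with the largest differences and the 4 with the highest signals, and up to 3 pathway genes per role with the smallest p.

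UVB was set against Control over all probe sets with limma 3.58.1 in R 4.3.3 (two-sided, Benjamini-Hochberg), tested on simulated data, with 2 residual degrees of freedom, or 1 with the experiment as a block. The block is drawn from the methods, in which each mouse gave a UVB and a Control eye. The deviations of the UVB and the Control array of an experiment correlated at −0.998, which the equal sums of the experiments produce. The number of arrays limits the precision. Alternatives were the block, prior settings, the methods' t-test, scalings, filters, the probe sets of a gene and leaving out each array. A crossed pairing and leaving out Ifitm3 were chosen after seeing the data. Some genes of the pathway are not reported here.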

Additional observations from a re-analysis of the deposited data

How the results depend on the processing

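With the experiment as a replicate block, the 2 members called higher became 0, as did the 3 pathway genes called higher and the 5 called lower, which ended the calls of Oasl2 and Gbp3 and changed no other call of a member. Crossing the pairs, chosen after seeing the data, gave 15 members higher and 12 lower, and 27 and 34 pathway genes. Over all 28944 probe sets it gave 9863 higher and 14020 lower, since equal sums make crossed differences equal. Leaving out any 1 array left 1 array in a group and 1 residual degree of freedom, so calls are not given for these fits. The member median was then 0.02 to 0.0225. A robust prior left 2 pathway genes lower, where 2297 of all 28944 probe sets were. Quantile normalization gave 1 member lower, 5 lower in both experiments and a median of 0.0419. Centring on the median gave 1 member and 8 pathway genes lower, 11 members lower in both experiments and a median of 0.0125. Equal 75th percentiles gave a median of 0.0525, with 4 members lower in both experiments. Over all probe sets the split of 1915 higher and 3184 lower became 2348 and 2169 with equal 75th percentiles, 2150 and 2504 with quantile normalization and 1803 and 4921 with centring. Among the 13 members above the median level, 1 was called higher, where 1182 of 14448 probe sets above it were. Of the 13, 5 were higher and 3 lower in both experiments, and the median was −0.01. The methods' t-test called 2 members lower (Irf9 and Oas2, only through the lower limit set on the SD). It called 0 pathway genes higher and 1 lower, and 980 and 1670 over all probe sets. An unadjusted p of 0.05 gave 6 and 1 members and 10 and 13 pathway genes, and 14.4% and 23.6% of all probe sets. Without Ifitm3 (chosen after seeing the data) the median was 0.025. Usp18 became 0.045 without UVB or without Control replicate 1 (range −0.085 to 0.045), and Irf9 became 0.01 with equal 75th percentiles. Besides Irf9, Bst2, Ifit2 and Irf1 changed sign under a scaling, 4 of 32 members. No member was past the thresholds of the methods under any of these settings. The causes were not tested. The median difference of the members regardless of sign (0.08) was under the median half-width of their 95% intervals (0.14, or 0.22 with the block).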
